A study of Mus musculus with 24 samples.

Results

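Chromosomes 13 and 18 of immortalized murine dermal fibroblasts changed in opposite directions between genotypes in lamin A/C ChIP-seq, and all regions called on them were collected here. The members are the SICER islands and EDD domains on these chromosomes in 12 libraries, 9423 of the 90551 regions called in all. They comprise 5642 islands and 102 domains on chromosome 13, and 3556 islands and 123 domains on chromosome 18. Islands are windows of enriched reads joined over short gaps and domains are broad stretches of enrichment of the Mb scale. Both were called against input chromatin of the same genotype and sonication. The chromosomes were chosen by the difference in island coverage between KO and WT, so those differences are given as a description, with no test.

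KO cells were Lap2alpha -/- dermal fibroblasts, which lack the LAP2alpha product of Tmpo, and WT cells were Lap2alpha +/+ fibroblasts. Chromatin was fixed and sheared for 12 or 30 sonication cycles. Lamin A/C was precipitated with the antibodies N18 and 3A6 in both genotypes (4 KO libraries and 4 WT libraries), and LAP2alpha and lamin B1 in WT alone (4 libraries). Each group was 1 library, so no spread between replicates exists. The number of clones or animals behind each immortalized line is not given in the sources used here, and a difference between the lines cannot be told apart from one of genotype. The lists hold no reading of LAP2alpha itself in KO, and the fibroblast identity could not be checked from them. KO and WT lamin A/C libraries of 1 sonication were sequenced in the same flow cell lane, whereas 12- and 30-cycle libraries of lamin A/C were not. Islands held between 3989494 and 13601739 reads per library. Input reads were not analysed here, so the copy number of either chromosome was not measured.

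A-type and B-type lamins form the meshwork under the inner nuclear membrane, where they contact lamina-associated domains, long A+T-rich and gene-poor stretches of silent chromatin. Lamin B1 stays at this periphery. A-type lamins also occur in the nuclear interior, where LAP2alpha, an isoform of Tmpo without a membrane anchor, binds them and associates with chromatin.

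As examples from stretches of chromosome 13 that lost lamin A/C domains, the 300 mm9 bases before the annotated starts of 2 genes are given. Ror2 (a receptor tyrosine kinase for Wnt ligands) lies in a G+C-rich stretch lost at 12 cycles, and Hapln1 (a link protein that joins hyaluronan to proteoglycans) in an A+T-rich stretch lost with 3A6 at 30 cycles. Both are read 5′ to 3′ on the strand of the gene, with CpG dinucleotides in capitals, from chr13:53381494-53381793 (minus strand) and chr13:89679941-89680240 (plus strand).
Ror2: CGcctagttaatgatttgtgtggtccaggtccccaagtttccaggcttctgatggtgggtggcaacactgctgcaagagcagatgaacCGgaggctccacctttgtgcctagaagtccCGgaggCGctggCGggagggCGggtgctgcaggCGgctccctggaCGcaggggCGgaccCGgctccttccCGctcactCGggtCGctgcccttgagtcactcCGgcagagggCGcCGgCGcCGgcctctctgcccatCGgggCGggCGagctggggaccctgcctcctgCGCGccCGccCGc
Hapln1: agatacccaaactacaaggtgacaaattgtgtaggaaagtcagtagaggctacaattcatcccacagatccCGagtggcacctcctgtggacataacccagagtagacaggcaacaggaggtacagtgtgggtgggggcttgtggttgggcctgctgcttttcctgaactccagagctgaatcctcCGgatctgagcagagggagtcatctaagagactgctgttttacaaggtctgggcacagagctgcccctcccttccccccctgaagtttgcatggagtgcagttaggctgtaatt
The window before Ror2 held 25 CpG and 69.3% G+C, and the window before Hapln1 held 2 CpG and 52.3% G+C. Of 22202 gene starts with a window of the same length, 93.9% held at least 1 CpG, 16.65% held 25 or more and 85.9% held 2 or more, with a median of 9. Both windows were richer in G+C than the lost stretches around them (46.9% for N18 at 12 cycles and 36.7%). They therefore do not show the composition of those stretches. These windows describe their own base composition and no binding site.

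In this assembly chromosome 13 measured 120284312 bp with 858 protein-coding genes (7.13 per Mb), and chromosome 18 measured 90772031 bp with 515 genes (5.67 per Mb), against 8.42 per Mb over the genome. Their G+C contents were 41.6% and 41.4%, beside 41.8% for the genome. The first 3 Mb of each are unassembled.

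Chromosome 13 lost nearly all of its lamin A/C islands in KO. With N18 at 12 cycles 24 islands covered 0.387% of the chromosome in KO, against 982 islands and 16.35% in WT. With 3A6 at 12 cycles 16 islands covered 0.250% in KO, against 1013 islands and 15.7% in WT. At 30 cycles N18 called 3 islands (0.0449%) in KO and 651 (15.7%) in WT, and 3A6 called 0 in KO and 314 (5.46%) in WT. Lists hold only regions that passed the caller's threshold, so a 0 means that no window passed it. The coverage in KO was thus 15.96, 15.4, 15.7 and 5.46 percentage points lower in N18 and 3A6 at 12 cycles and N18 and 3A6 at 30 cycles.

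Chromosome 18 showed the opposite. N18 at 12 cycles called 912 islands over 39.4% of it in KO, against 132 islands over 2.26% in WT. 3A6 at 12 cycles called 953 islands (32.4%) in KO and 143 (2.33%) in WT. At 30 cycles the values were 464 islands (31.97%) in KO and 53 (1.22%) in WT for N18, and 520 islands (30.6%) in KO and 16 (0.334%) in WT for 3A6. KO islands were also longer there, with medians of 28 and 24 kb at 12 cycles and 42.5 and 38 kb at 30 cycles for N18 and 3A6, against 15 kb for both antibodies at 12 cycles and 20 and 17.5 kb at 30 cycles in WT. The longest reached 418 kb in KO (N18, 30 cycles, chr18:65880001-66298000), against 48 kb in WT.

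Among all 20 chromosomes, chromosome 18 had the highest KO minus WT difference in island coverage in all 4 pairs, namely 37.2 and 30.1 percentage points with N18 and 3A6 at 12 cycles and 30.75 and 30.25 at 30 cycles. The next highest differences were 16.03 and 13.7 at 12 cycles (both on chromosome 3), 7.61 with N18 at 30 cycles (chromosome 3) and 18.8 with 3A6 at 30 cycles (chromosome 8). Chromosome 13 ranked lowest with N18 at 30 cycles, and 2nd, 3rd and 7th from the lowest with N18 at 12, 3A6 at 12 and 3A6 at 30 cycles. Chromosome 19 was lower than it at 12 cycles (-16.8 and -21.9), and the X chromosome had the lowest difference with 3A6 at 30 cycles (-19.9). The chromosomes with the next highest differences at 12 cycles, 3 and 16, did not keep them at 30 cycles with both antibodies. Chromosome 16 had 14.2 and 12.1 percentage points more in KO at 12 cycles, but -0.224 and -0.268 at 30 cycles. Chromosome 3 had 7.61 with N18 and -3.74 with 3A6 at 30 cycles. Smaller differences were positive in all 4 pairs on chromosome 12 (3.61, 1.86, 3.80 and 1.19) and chromosome 4 (1.97, 0.314, 4.79 and 1.09). The order is N18 12, 3A6 12, N18 30 and 3A6 30. Chromosome 12 had 199, 109, 228 and 79 islands in KO against 1, 1, 1 and 0 in WT. A gain from few islands that was kept at both sonications was therefore not particular to chromosome 18. Differences were negative in all 4 pairs on chromosomes 14, 17, 19 and X as well as on chromosome 13. Those of chromosome 17 were -9.93, -15.9, -6.40 and -15.8 in the same order, lower than chromosome 13 with 3A6 at both sonications. A loss kept at both sonications was thus not particular to chromosome 13 either.

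**Figure D1:**
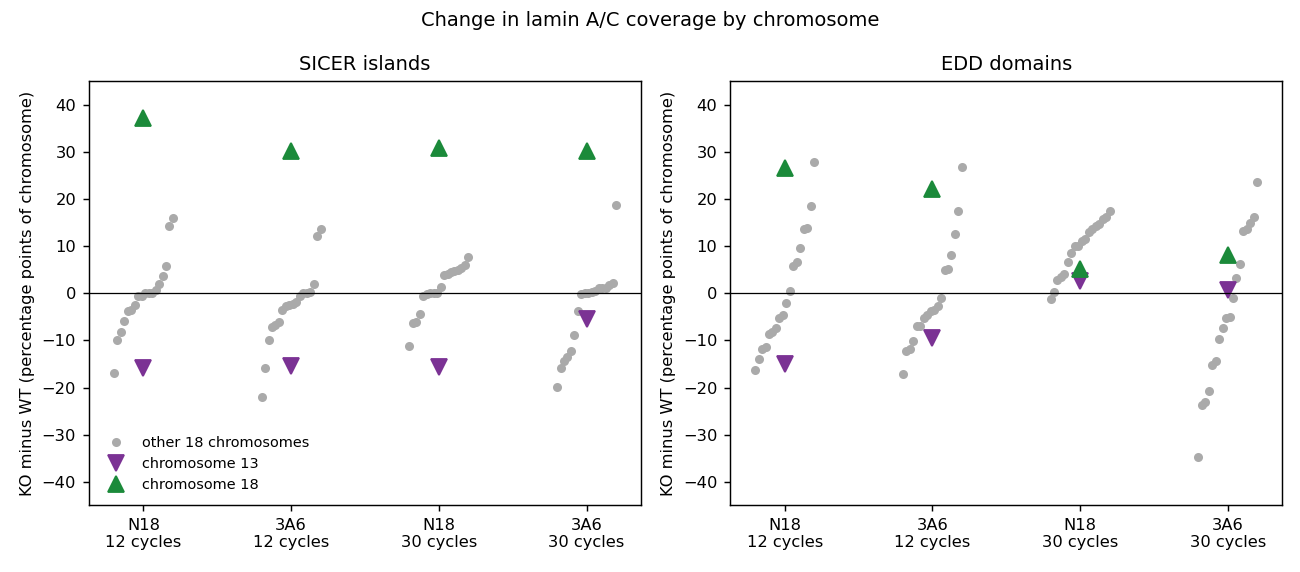
KO minus WT coverage in percentage points of each chromosome (y axis) for the 4 lamin A/C pairs of antibody and sonication (x axis), for SICER islands (left) and EDD domains (right), 1 library per genotype. Triangles mark chromosome 18 (upward) and chromosome 13 (downward), and grey points the other 18 chromosomes. Chromosome 18 lies above all others for islands in each pair, between 30.1 and 37.2, whereas for domains both lie within the range of the others.

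In WT alone, every antibody but LAP2alpha at 30 cycles gave chromosome 13 far more islands than chromosome 18. Lamin B1 at 12 cycles had 851 islands (17.2%) on chromosome 13 and 13 (0.278%) on chromosome 18, and at 30 cycles 739 (15.5%) and 26 (0.534%). LAP2alpha at 12 cycles had 830 (13.4%) and 175 (3.01%), but at 30 cycles 219 (4.30%) and 149 (3.99%). The imbalance of WT was therefore not limited to lamin A/C antibodies, and KO lamin A/C libraries had it the other way round. Other chromosomes of WT differed by more. With N18 at 12 cycles island coverage ran from 0.00742% on chromosome 12 to 36.4% on chromosome 8, so an imbalance between chromosomes was not particular to this pair.

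The next question was whether the change ran evenly along each chromosome. Its direction did. Of the 118 assembled 1-Mb bins of chromosome 13, island coverage was lower in KO in 108 (91.5%) with N18 at 12 cycles, 113 (95.8%) with 3A6 at 12 cycles, 109 (92.4%) with N18 at 30 cycles and 103 (87.3%) with 3A6 at 30 cycles. Over all 2581 bins of the genome those shares were 36.4%, 43.7%, 32.2% and 35.2%. The bins of chromosome 13 with a higher value in KO numbered 1, 0, 1 and 0 in the same order, and in the remaining bins both genotypes were at 0. On chromosome 18 coverage was higher in KO in 87 of 88 bins (98.9%), 88 (100%), 83 (94.3%) and 77 (87.5%), with 29.1%, 24.2%, 34.3% and 26.6% over the genome. Bins with a lower value in KO numbered 0, 0, 1 and 5. In 10-Mb segments no exception was left, since all 12 full segments of chromosome 13 were lower in KO and all 9 full segments of chromosome 18 were higher in KO in each of the 4 pairs. Some other chromosomes came near such shares. Chromosome 19 was lower in KO in 98.3% of 59 bins with both antibodies at 12 cycles, and X in 87.8% (N18) and 91.5% (3A6) at 30 cycles. Chromosome 3 was higher in KO in 89.8% (N18) and 88.5% (3A6) of bins at 12 cycles. The shares of chromosomes 19, X and 3 were smaller at the other sonication. Chromosome 17 was lower in KO in 82.8%, 87.1%, 70.97% and 82.8% of 93 bins (N18 12, 3A6 12, N18 30, 3A6 30). It was higher in KO in 7, 9, 25 and 15 bins. Chromosome 12 was higher in KO in 61, 53, 61 and 48 of 119 bins, and lower in 0 in each pair. A prevailing direction at both sonications was thus not particular to chromosomes 13 and 18. Genome shares include bins equal in both genotypes, such as 184 of 194 on chromosome 1 (N18, 12 cycles). At 12 cycles chromosome 10 had 1 island in KO against 208 in WT with N18, and 0 against 223 with 3A6. As chromosomes 13 and 18 were chosen for this difference, the shares describe its extent and do not test it.

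The size of the change was uneven. On chromosome 13 the largest difference fell between 50 and 60 Mb for N18 at 12 cycles (2.80% in KO against 42.4% in WT), 3A6 at 12 cycles (1.17% against 42.8%) and N18 at 30 cycles (0.250% against 36.6%). The smallest fell between 80 and 90 Mb in those pairs, where KO had 0 and WT had 1.85%, 1.91% and 4.26%. With 3A6 at 30 cycles WT was flatter, between 3.15% and 9.11% per segment, and its largest loss fell between 70 and 80 Mb. As KO was near 0 throughout, the difference took the shape of the WT profile.

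On chromosome 18 KO coverage varied from segment to segment, and with N18 at 12 cycles KO and WT were both highest between 60 and 70 Mb. Between 60 and 70 Mb N18 at 12 cycles covered 60.65% in KO against 5.54% in WT, the largest difference of the pair, and in the first 10 Mb 23.9% against 1.29%, the smallest. For 3A6 at 12 cycles the range ran from 16.3% in KO against 1.08% in WT (first 10 Mb) to 44.85% against 2.61% (80 to 90 Mb). N18 at 30 cycles ranged from 10.75% against 0 (first 10 Mb) to 50.65% against 2.04% (70 to 80 Mb), and 3A6 at 30 cycles from 4.53% against 0.310% (first 10 Mb) to 49.97% against 0.570% (40 to 50 Mb). In 1-Mb bins the difference had quartiles of 22.4 and 52.1 percentage points with N18 and 18.5 and 39.4 with 3A6 at 12 cycles, and of 10.4 and 51.1 with N18 and 6.10 and 52.75 with 3A6 at 30 cycles. The coefficient of variation of KO coverage over bins was 0.589, 0.498, 0.761 and 0.816 in N18 12, 3A6 12, N18 30 and 3A6 30. On chromosome 8, which was highly covered in both genotypes, the KO values were 0.772, 0.643, 0.746 and 0.515 in the same order, so chromosome 18 was the more even of these chromosomes at 12 cycles and the less even at 30 cycles.

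**Figure D2:**
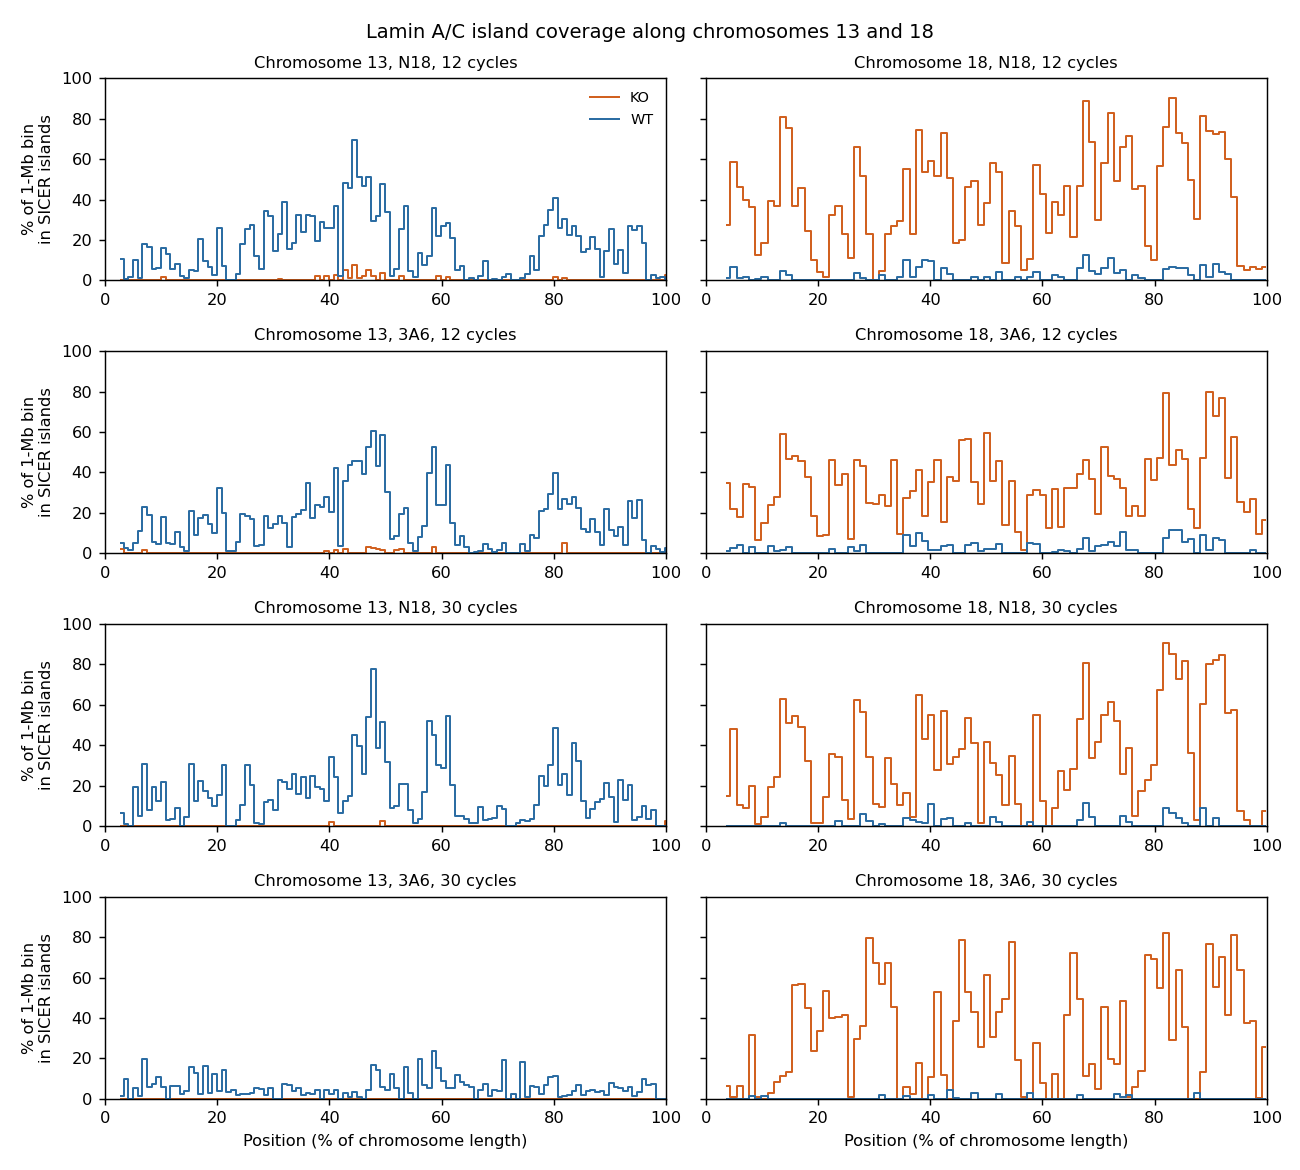
Percent of each 1-Mb bin inside SICER islands (y axis) along chromosomes 13 (left) and 18 (right), with position in percent of chromosome length (x axis), for N18 and 3A6 after 12 and 30 cycles. Orange lines are KO and blue lines WT, 1 library each. KO lies near 0 along all of chromosome 13, and on chromosome 18 it exceeds WT along nearly all its length while varying from bin to bin between 0 and 90.6% in N18 at 30 cycles.

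Island-free stretches gave the same picture. The longest on chromosome 13 measured 24.2 Mb in KO against 2.97 Mb in WT (N18, 12 cycles), 38.97 against 3.77 Mb (3A6, 12 cycles), 60.8 against 2.53 Mb (N18, 30 cycles) and 117.3 against 2.83 Mb (3A6, 30 cycles). On chromosome 18 it measured 1.29 against 10.49 Mb, 0.858 against 6.95 Mb, 3.09 against 9.65 Mb and 2.57 against 18.8 Mb in the same pairs.

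Some islands of the less covered genotype touched islands of the other. On chromosome 13, 19 of 24 KO islands with N18 and 14 of 16 with 3A6 touched a WT island at 12 cycles, and 2 of 3 with N18 at 30 cycles. Counted from WT, 26 of 982 islands (2.65%) with N18 and 17 of 1013 (1.68%) with 3A6 touched a KO island at 12 cycles. On chromosome 18, 103 of 132 WT islands with N18 and 92 of 143 with 3A6 touched a KO island at 12 cycles, 41 of 53 with N18 at 30 cycles, but 3 of 16 with 3A6 at 30 cycles. Such overlap was found on other chromosomes as well. In N18 at 12 cycles the KO share touching WT was 79.2% on chromosome 13 and up to 75.6% on another chromosome with at least 20 islands, and the WT share touching KO was 78.03% on chromosome 18 and up to 74.2% on another. KO islands of chromosome 18 that touched one in WT were 89 of 912 and 86 of 953 at 12 cycles and 31 of 464 and 3 of 520 at 30 cycles. On the other 18 chromosomes together 49.2%, 46.6%, 39.0% and 39.6% of KO islands touched one in WT (N18 12, 3A6 12, N18 30, 3A6 30). Of WT islands there 42.0%, 31.5%, 39.5% and 23.3% touched one in KO. These shares make no allowance for how much of a chromosome the islands of the other genotype covered.

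A single island stood apart. At the very end of chromosome 13 (chr13:120277001-120284000, picked after its values were seen) N18 KO libraries had 921 reads (131.6 reads per kb) at 12 cycles and 2014 reads (287.7 reads per kb) at 30 cycles, and 3A6 KO libraries had no island there. WT islands covered the same stretch with 3A6 at 12 cycles (59.6 reads per kb), with LAP2alpha at 12 and 30 cycles (46.9 and 124.4) and with lamin B1 at 12 cycles (60.9), but not with N18 at either sonication, so the stretch was not called in KO alone. It was 1 of the 3 KO islands of N18 at 30 cycles, and the other 2 had 38.9 and 39.2 reads per kb.

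Reads per kb of island changed far less than island number. On chromosome 18 N18 had 21.5 reads per kb in KO against 18.8 in WT at 12 cycles, and 51.1 in KO against 34.2 in WT at 30 cycles. 3A6 had 21.0 in KO against 18.7 in WT at 12 cycles, and 49.2 in KO against 34.9 in WT at 30 cycles. Part of the step at 30 cycles was shared by the library, because relative to the other 18 chromosomes of the same library chromosome 18 stood at 0.992, 0.987, 1.03 and 1.01 in KO and at 0.882, 0.8815, 0.862 and 0.908 in WT (N18 12, 3A6 12, N18 30, 3A6 30). On chromosome 13 the density at 12 cycles was 18.3 in KO against 19.8 in WT for 3A6, and 20.4 in KO against 19.8 in WT for N18. The N18 direction rests on the terminal island, without which KO had 18.7, below WT. N18 at 30 cycles had 71.3 in KO against 37.3 in WT, but 39.0 in KO without that island. A window must exceed a threshold to be called, which sets a floor under these densities and leaves reads outside islands unseen.

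Along chromosome 18 the density in KO was even. In segments of 10 Mb with at least 10 islands density lay between 20.8 and 22.0 reads per kb in KO against 17.8 and 18.9 in WT (N18, 12 cycles). With 3A6 at 12 cycles it lay between 20.6 and 21.5 in KO against 17.8 and 18.8 in WT. KO had 9 such segments with each antibody, but WT had 4 with N18 and 5 with 3A6. Over the 9 segments with at least 3 islands in both genotypes WT ranged more widely, from 17.8 to 22.3 (N18) and from 17.7 to 22.7 (3A6). At 30 cycles KO segments lay between 49.3 and 52.6 (N18) and between 48.2 and 51.9 (3A6). Where both genotypes had at least 3 islands, the KO to WT ratio of density at 30 cycles lay between 1.48 and 1.53 over 6 segments (N18) and between 1.36 and 1.47 over 3 segments (3A6). At 12 cycles its median was 1.16 with N18 and 1.13 with 3A6 over 9 segments, and the first 10 Mb were the exception at 0.975 and 0.923. So density inside islands kept nearly the same step along the chromosome, while the share of each segment that islands covered did not.

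**Figure D3:**
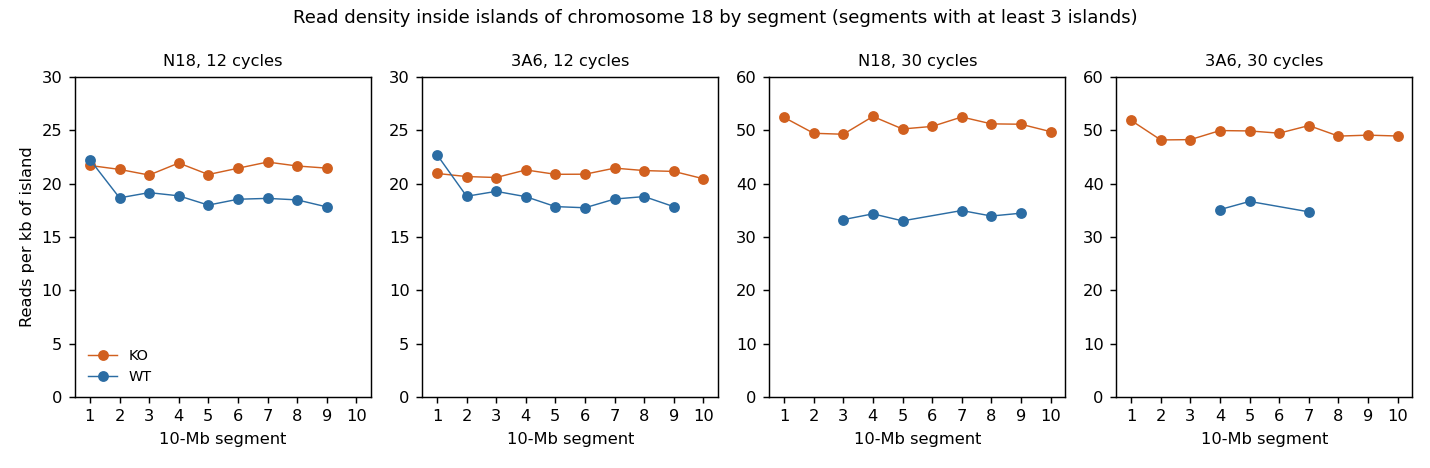
Reads per kb of SICER island (y axis, from 0) in 10-Mb segments of chromosome 18 counted from its start (x axis) for each antibody and sonication, orange for KO and blue for WT, where at least 3 islands were called. KO lies between 48.2 and 52.6 at 30 cycles and above WT in each segment with both, and at 12 cycles it is above WT in all segments but the first.

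EDD domains, called on the same reads, followed the islands at 12 cycles. On chromosome 13 N18 had 2 domains (1.32% of the chromosome) in KO and 10 (16.4%) in WT, and 3A6 had 5 (4.05%) in KO and 13 (13.5%) in WT. On chromosome 18 N18 had 16 domains (32.3%) in KO and 6 (5.76%) in WT, and 3A6 had 20 (29.2%) in KO and 8 (7.11%) in WT. Domain coverage was lower in KO in 28 of 118 bins (23.7%) of chromosome 13 with N18 and in 26 (22.0%) with 3A6, beside 12.7% and 19% over the genome. On chromosome 18 it was higher in KO in 44 of 88 bins (50%) with N18 and in 41 (46.6%) with 3A6, beside 15.3% and 16.3%. The share for 3A6 on chromosome 13 was thus near that of the genome. The domain difference at 12 cycles was 26.6 percentage points on chromosome 18 against 27.8 on chromosome 16 with N18, and 22.1 against 26.8 with 3A6, so chromosome 18 ranked below chromosome 16 there.

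At 30 cycles domains and islands parted on chromosome 13. N18 had 10 domains (11.8%) in KO and 12 (9.23%) in WT, and 3A6 had 2 (1.23%) in KO and 1 (0.530%) in WT, so that KO was slightly higher although it had 3 and 0 islands there. Of the KO domains 9 of 10 with N18 and 2 of 2 with 3A6 held no island. Bins with less domain coverage in KO were 7.63% with N18 and 0.848% with 3A6, beside 8.1% and 24.3% over the genome. On chromosome 18 N18 had 8 domains (10.8%) in KO and 9 (5.60%) in WT, and 3A6 had 12 (22.6%) in KO and 10 (14.4%) in WT. Bins with more domain coverage in KO made up 15.9% and 29.5%, beside 25.2% and 19.7% over the genome. With N18 at 30 cycles chromosome 18 was therefore below the genome in this share. WT lists showed the split as well. With 3A6 at 30 cycles 9 of the 10 WT domains on chromosome 18 held no island, and lamin B1 domains covered 32.4% of chromosome 18 at 30 cycles while its islands covered 0.534%.

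By length, 18.2 Mb of domains was lost and 0 gained on chromosome 13 with N18 at 12 cycles, and 11.95 Mb lost and 0.605 Mb gained with 3A6, while 1.58 and 4.27 Mb was kept. Of the lost length 60.65% and 63.4% lay in LAP2alpha domains of WT at 12 cycles, and 22.5% and 38.9% in lamin B1 domains. Both shares were higher for the kept length, with 100% for both antibodies in LAP2alpha domains and 76.4% and 80.4% in lamin B1 domains. On chromosome 18 24.1 Mb was gained and 0 lost with N18, and 21.7 Mb gained and 1.63 Mb lost with 3A6. The gained length lay in LAP2alpha domains for 8.57% and 2.39%, and in lamin B1 domains for 10.99% and 40.6%. For the kept length these shares were 96.8% and 86.8% in LAP2alpha domains, and 0 and 6.38% in lamin B1 domains. The G+C content of the gained length was 43.4% with N18 and 39.8% with 3A6. At 30 cycles 6.61 Mb was gained and 3.55 Mb lost on chromosome 13 with N18, and 1.47 Mb gained and 0.638 Mb lost with 3A6. On chromosome 18 the lengths were 6.26 Mb gained and 1.52 Mb lost with N18, and 13.9 Mb gained and 6.41 Mb lost with 3A6. With 3A6 lamin B1 domains of that sonication held 97.6% of the lost, 98.0% of the kept and 67.6% of the gained length. These overlaps are not set against the part of each chromosome that LAP2alpha or lamin B1 domains covered. They are therefore a description and show neither preference for such domains nor avoidance of them.

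**Figure D4:**
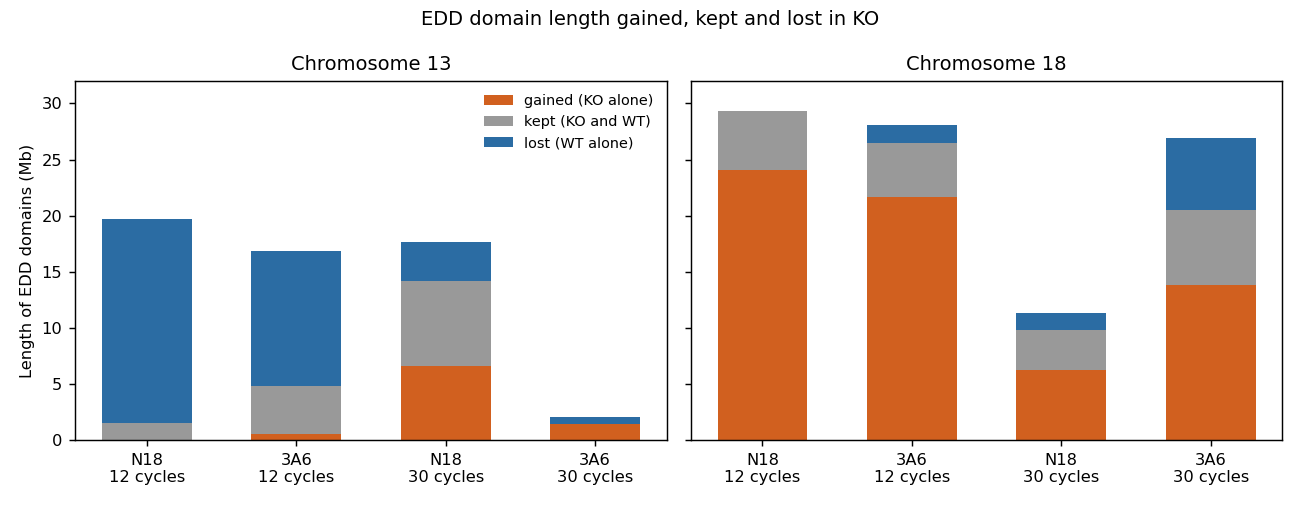
Length of EDD domains in Mb (y axis, from 0) on chromosomes 13 and 18 for each antibody and sonication (x axis), stacked as gained in KO (orange), kept in both genotypes (grey) and lost in KO (blue), 1 library per genotype. At 12 cycles loss prevails on chromosome 13 (18.2 and 11.95 Mb) and gain on chromosome 18 (24.1 and 21.7 Mb), and at 30 cycles the gains exceed the losses on both chromosomes.

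The longest lost stretch of chromosome 13 was chr13:51007001-57288000 with N18 at 12 cycles (6.28 Mb, 80 genes, 46.9% G+C), inside the longest WT domain of that library (9.03 Mb, chr13:51007001-60038000). For 3A6 at 12 cycles it was chr13:52723001-57057000 (4.33 Mb, 68 genes), and LAP2alpha domains of WT covered all of it at 12 cycles. Islands filled 3.55% of the N18 stretch in KO against 50.7% in WT, and lamin B1 domains held 6.31% of it. The stretch contains Ror2, Msx2 (a homeobox factor induced by BMP signals), Tgfbi (a matrix protein induced by TGF-beta) and Smad5 (a transducer of BMP receptors), and all 4 were lost with both antibodies at 12 cycles. At 30 cycles the same block behaved otherwise, for the longest gain of N18 on chromosome 13 was chr13:53614001-56254000 (2.64 Mb, 52 genes, with Zfp346, a zinc finger protein gene, inside). Islands covered none of this gain in KO at 30 cycles, against 37.8% of it in WT. Tgfbi and Smad5 were 100% inside a KO domain of N18 at 30 cycles, against 0 and 17.1% in WT.

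Other changed stretches of chromosome 13 were shorter. With 3A6 at 30 cycles the only loss was chr13:89100001-89738000 (0.638 Mb, 36.7% G+C) with Edil3 (an extracellular integrin ligand) and Hapln1, whose sequence before the start is given above. Lamin B1 domains covered 86.2% of it at 12 cycles and all of it at 30 cycles, and the longest lamin B1 domain of the chromosome (7.74 Mb, chr13:82005001-89749000) ran through it. Hapln1 was 81.1% inside this WT domain and 0 inside any KO domain. The longest gain with 3A6 at 30 cycles was chr13:57288001-58212000 (0.924 Mb) with Spock1, which encodes a testican proteoglycan, and Klhl3, an adaptor of a ubiquitin ligase. N18 domains of KO covered this stretch at both sonications, and those of WT covered 100% of it at 12 and 96.4% at 30 cycles. Domains of 3A6 covered it in both genotypes at 12 cycles, so only 3A6 in WT at 30 cycles lacked it among the lamin A/C libraries. With N18 at 30 cycles the longest loss was chr13:96492001-97196000 (0.704 Mb) with Iqgap2 (a cytoskeletal scaffold) and Sv2c (a synaptic vesicle protein), and with 3A6 at 12 cycles the 1 gain was chr13:50116001-50721000 (0.605 Mb) with Fbxw17 and Gm806.

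On chromosome 18 the longest gains of N18 and 3A6 at 12 cycles were different stretches. N18 gained chr18:11946001-15763000 (3.82 Mb, 21 genes, 43.1% G+C), which holds Zfp521, a zinc finger transcription factor of progenitor cells. Islands filled 63.4% of it in KO against 1.89% in WT with N18, and 50.04% against 1.1% with 3A6, although 3A6 domains of KO took in only 29.1% of it. 3A6 gained chr18:25993001-30778000 (4.79 Mb, 2 genes, 38.4% G+C) with Pik3c3, the lipid kinase of autophagy, and lamin B1 domains of WT held 70.3% of this gene-poor stretch at 12 cycles. Islands of 3A6 filled 30.8% of it in KO against 0 in WT, and those of N18 16.2% against 0.502%. Nearly the same stretch was the longest gain of 3A6 at 30 cycles (chr18:25751001-30371000, 4.62 Mb, Celf4, an RNA-binding protein of neurons), with islands over 69.8% of it in KO against 0.390% in WT.

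With N18 at 30 cycles the longest gain was chr18:74932001-76769000 (1.84 Mb, 9 genes, 47.1% G+C), with Smad7 (an inhibitor of TGF-beta signalling) and Smad2 (a transducer of it). The longest losses on chromosome 18, from 4, 4 and 10 lost stretches, were chr18:80179001-80839000 (0.660 Mb, 3A6 at 12 cycles, with Pard6g, a polarity protein, and Ctdp1, an RNA polymerase phosphatase), chr18:85228001-85943000 (0.715 Mb with 0 genes, N18 at 30 cycles) and chr18:86768001-88924000 (2.16 Mb, 3A6 at 30 cycles, with Cbln2, a synaptic organizer). In these 3 islands covered more in KO than in WT, and the shorter losses were not examined in this way. The values with 3A6 at 12 cycles were 49.7% against 13.8%, with N18 at 30 cycles 60.3% against 0, and with 3A6 at 30 cycles 40.3% against 0.

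The profiles along a chromosome followed base composition to differing degrees. Pearson's r between island coverage and G+C content over 88 bins of chromosome 18 was 0.923 with N18 and 0.473 with 3A6 in KO at 12 cycles, against 0.774 and 0.714 in WT. At 30 cycles it was 0.757 with N18 and -0.196 with 3A6 in KO, against 0.606 and 0.0485 in WT. Over 116 bins of chromosome 13 it was 0.888 with N18 and 0.853 with 3A6 in WT at 12 cycles, 0.893 with LAP2alpha and -0.303 with lamin B1. The points of each r come from 1 library and neighbouring bins, so they are a description without a test. Coverage in KO and WT of 1 antibody along chromosome 18 had r of 0.698 (N18, 12 cycles), 0.336 (3A6, 12 cycles), 0.449 (N18, 30 cycles) and -0.191 (3A6, 30 cycles). N18 coverage in KO was thus higher in G+C-rich bins at both sonications, and 3A6 coverage in KO at 30 cycles was not.

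Genes were counted as inside a region when at least 50% of their length was covered. With N18 at 12 cycles 165 of the 858 genes of chromosome 13 (19.2%) lost domains in KO and 0 gained them, against 11.9% and 7.64% of all 22208 genes. With 3A6 at 12 cycles 125 (14.6%) lost and 4 gained domains, against 15.4% and 5% of all genes, so that the lost share was close to that of the genome. On chromosome 18 152 of 515 genes (29.5%) gained domains with N18 and 0 lost them, and 85 (16.5%) gained and 23 lost them with 3A6. At 30 cycles 104 genes (12.1%) of chromosome 13 gained and 24 (2.80%) lost domains with N18, and 3 (0.350%) gained and 2 (0.233%) lost them with 3A6. Of all genes 24.4% gained and 1.76% lost domains with N18, and 8.94% and 5.75% with 3A6. Chromosome 18 had 43 (8.35%) gained and 2 (0.388%) lost with N18 and 27 (5.24%) gained and 13 (2.52%) lost with 3A6. The gained shares at 30 cycles were thus below those of the genome on both chromosomes. By islands, 274 genes of chromosome 18 (53.2%) were gained with N18 and 167 (32.4%) with 3A6 at 12 cycles, and 214 (41.55%) and 112 (21.75%) at 30 cycles, beside 7.72%, 3.66%, 10.7% and 3.84% of all genes. Genes of chromosome 13 that lost islands in KO numbered 169 (19.7%) with N18 and 135 (15.7%) with 3A6 at 12 cycles, and 124 (14.45%) and 41 (4.78%) at 30 cycles, beside 7.82%, 9.43%, 4.53% and 3.55% of all genes.

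Of 13 Wnt, Hedgehog, BMP and activin signal genes, 0 were inside KO domains of either antibody at 12 cycles, against 4 in WT with N18 and 4 with 3A6, and LAP2alpha domains held 4. At 30 cycles N18 domains held 2 in KO and 0 in WT, and those of 3A6 held 0 in both. Nothing particular to the list is shown, because 19.2% and 14.6% of all genes of the chromosome lost domains at 12 cycles. Ror2 was 8.48% covered by islands in KO against 78.5% in WT with N18 at 12 cycles, and 0 against 43.7% with 3A6. Msx2 was 0 against 39.4% with N18. Of 4 forkhead genes 0 were in KO domains of N18 at 12 cycles and 2 in WT, among them Foxf2, a regulator of mesenchyme, but 3A6 domains held 0 in KO and 0 in WT. Other families of chromosome 13 lay in lamin B1 domains. Of 33 vomeronasal type 1 receptor genes (pheromone receptors) lamin B1 domains held 19 at 12 cycles and all 33 at 30 cycles, and N18 domains held 0 in KO against 16 in WT at 30 cycles. These genes are neighbours, and in each library the count comes from the same domain call (0.583 Mb for N18 in WT). With N18 at 30 cycles 2.80% of all genes of the chromosome and 1.76% of all genes lost domains. Of 11 cathepsin genes, lysosomal proteases, lamin B1 domains held 10 and 8, and N18 domains 2 in KO against 0 in WT at 30 cycles.

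Other clusters of chromosome 13 carried few regions in any library. Of 55 Hist1 genes (replication-dependent histones) 1 was in a domain, that of N18 in WT at 12 cycles, and islands held 5 with LAP2alpha at 12 cycles. No domain of any of the 12 libraries held one of the 26 prolactin family genes or 15 serpin clade B genes. Of 36 numbered zinc finger genes islands held 0 in KO against 8 in WT with N18 and 0 against 5 with 3A6 at 12 cycles, and of 12 matrix genes N18 domains held 0 in KO against 2 in WT at that sonication.

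On chromosome 18 gains were common, so the counts of its lists stand beside the shares of the chromosome (29.5% of its genes gained domains and 53.2% islands with N18 at 12 cycles) and, with N18 at 30 cycles, 24.4% of all genes gaining domains. The 3 Smad genes, which lie near each other, were in domains gained by N18 at both sonications. Smad4, the common partner of receptor-activated Smads, Smad2 and Smad7 were each 100% inside KO domains of N18 at 12 and 30 cycles, against 0 in WT. With 3A6 at 12 cycles KO domains held Smad4 and Smad2, and at 30 cycles Smad4 alone, again against 0 in WT. Lamin B1 domains held none of the 3.

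The protocadherin cluster (24 annotated alpha, beta and gamma genes, cell surface proteins of neurons) separated the callers. Islands held 15 and 13 of its genes in KO with N18 and 3A6 at 12 cycles, and 12 and 17 at 30 cycles, against 0 in each of the 4 WT libraries. Domains held 1 in KO with N18 and 23 with 3A6 at 12 cycles against 0 in WT, and at 30 cycles 0 in KO against 0 in WT with N18 and 0 in KO against 2 in WT with 3A6. LAP2alpha at 30 cycles held all 24 and lamin B1 at 30 cycles 15. Of 9 desmosomal cadherin genes, which join epithelial cells, KO domains held 1 with N18 and 6 with 3A6 at 12 cycles against 0 in WT, and lamin B1 domains 3 at 12 and 9 at 30 cycles. The genes of each cluster are neighbours, and in each library the count in domains comes from 1 domain call. The 23 protocadherin genes of 3A6 in KO at 12 cycles, for example, lay in chr18:36916001-37917000. Dsg2 was 100% inside islands in KO with 3A6 at 12 cycles and with both antibodies at 30 cycles, against 0 in WT.

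Of 11 transcription factor genes of chromosome 18 islands held 8 in KO with N18 and 2 with 3A6 at 12 cycles, and 5 and 1 at 30 cycles, against 0 in WT. Zfp521 was 62.5% covered in KO against 0 in WT with N18, and 49.7% against 3.85% with 3A6 at 12 cycles. Fbn2 (fibrillin-2, of elastic microfibrils) was 89.6% covered in KO with N18 at 12 cycles and 89.2% with 3A6 at 30 cycles, against 0 in WT. Within the same list of 9 matrix and growth factor receptor genes, Lox (the collagen cross-linking enzyme) and Nr3c1 (the glucocorticoid receptor) had 0 coverage in all 12 libraries. Of 10 Kazal-type serine protease inhibitor genes islands held 0 and 3 in KO at 12 cycles and 1 and 3 at 30 cycles with N18 and 3A6, against 0 in WT, and no domain held any. Of 8 cell adhesion and cytoskeleton genes KO domains held 2 with each antibody at 12 cycles, against 1 in WT. Lmnb1, which encodes lamin B1, was 100% inside islands in KO against 0 in WT with N18 at 12 cycles, 33.1% against 0 with 3A6 at 30 cycles, and in no domain of any library.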

How the data were processed

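Reads were trimmed by the authors with cutadapt, aligned to mm9 with Bowtie2 2.1.0, freed of duplicates and down-sampled to the read number of the matched input with Picard, as the submitters' processing notes and the methods of the study state. Islands were deposited with raw counts of ChIP reads, as SICER 1.1 gave them (windows of 1000 bp, gaps of 3000 bp, FDR 0.01). Domains were deposited with a score from EDD (bins of 11 kb, gap penalty 5, FDR 0.1). Libraries of 1 genotype and sonication shared an input. Of the 24 samples, 4 inputs and 8 histone-mark samples were not analysed here.

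Coverage was the share of bp in islands or domains, per chromosome, in segments of 10 Mb and in bins of 1 Mb with assembled bases. Read density was reads divided by island length. Lost, kept and gained length was held in WT alone, in both or in KO alone. Positions count from 1, and 0 regions passed a chromosome end. A gene was inside when at least 50% was covered, with the longest record of each of 22208 symbols of an mm9 annotation. Interval code was tested on simulated data. Intervals on shares of bins would cover neither replicate nor counting error and are not given. With 1 library per group no test was run. Members and 17 gene lists were chosen with earlier results of these data known. Named were the longest domain, island, lost and gained stretch, the segments with the largest and smallest difference, list genes, and otherwise the 2 longest genes of a stretch. Alternatives were other bin sizes, minimum differences, unassembled bins, stricter islands and domains, other scalings of density, and genes by start or by islands. Python 3.11.15, numpy 2.4.6, pandas 2.3.3, scipy 1.17.1 and matplotlib 3.10.9 were used.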

Additional observations from a re-analysis of the deposited data

Results flagged for a closer look

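On chromosome 13 the KO minus WT difference in domain coverage had opposite signs at the 2 sonications with both antibodies. With N18 it was -15.1 percentage points at 12 cycles and 2.54 at 30 cycles, and with 3A6 -9.43 at 12 cycles and 0.695 at 30 cycles. Island coverage was lower in KO at both sonications (15.96 and 15.7 points with N18, 15.4 and 5.46 with 3A6). The difference between sonications was not tested, since each rests on 1 library per genotype, and sonication cannot be told apart from the flow cell lane.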

How the results depend on the processing

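No analysis paired by replicate was possible because each group had 1 library and the labels give no replicate numbers. KO and WT libraries do match by antibody, sonication and lane, and their 4 pairs are given side by side, but a fit across them was not run, since the antibodies shared inputs and the chromosomes were chosen on these differences. Direction and size were recomputed for the 16 shares of bins under 6 alternatives each. Of these 96 values 54 lay within the 95% Wilson interval of the share given, 41 moved outside it and 1 reversed. The interval treats neighbouring bins of 1 library as independent, so it served only to sort these values and measures no robustness. The reversal was less against more domain coverage on chromosome 13 with N18 at 30 cycles, where 28% of 5-Mb bins were lower in KO and fewer were higher, against 7.63% lower and 13.6% higher in 1-Mb bins. Shares below are of bins with fewer islands or domains in KO on chromosome 13 and with more in KO on chromosome 18, in the order N18 12, 3A6 12, N18 30 and 3A6 30 cycles, with unmoved ones left out. For islands on chromosome 13 they were 82.98%, 85.5%, 79.6% and 65.1% in 500-kb bins, 96%, 100%, 96% and 96% in 5-Mb bins, 71.2%, 67.8%, 69.5% and 44.9% for differences of at least 5 points, 73.7%, 77.1%, 74.6% and 50.85% with islands above the median read count, and 71.2%, 72.0%, 78.8% and 65.25% with islands of at least 20 kb. For islands on chromosome 18 they were 85.2% (N18 30) and 74.4% (3A6 30) in 500-kb bins, 100% (N18 12, N18 30 and 3A6 30) in 5-Mb bins, 82.95% (N18 30) and 77.3% (3A6 30) for differences of at least 5 points, and 93.2% (N18 12) with islands above the median read count. For domains on chromosome 13 they were 40% and 52% (both at 12 cycles) in 5-Mb bins, and 16.95%, 14.4%, 1.69% and 0% with domains above the median score. For domains on chromosome 18 they were 68.4%, 73.7%, 31.6% and 52.6% in 5-Mb bins, and 30.7% (N18 12), 31.8% (3A6 12) and 9.09% (N18 30) with domains above the median score. The construction of larger bins and of stricter lists moves such shares, and the island direction held in all of them.

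The 55 other values gave 5 reversals. On chromosome 13 the KO minus WT difference in reads per kb of island with N18 at 12 cycles became -0.0096 when scaled to the reads of the down-sampled libraries, and that of 3A6 at 12 cycles became 0.552 with islands above the median read count. Without the terminal island, an alternative chosen after seeing the data, the N18 difference became -1.07 at 12 cycles and 1.76 at 30 cycles. Genes gained minus lost on chromosome 13 at 30 cycles became -123 (N18) and -41 (3A6) with islands in place of domains. The cause was not tested. Islands are listed only above a threshold, so depth limits which windows were called, and reads outside them were not seen.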
